A study of Mus musculus with 4 samples.

Results

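The ETS transcription factor genes described here are Fli1, Erg, Etv2, Ets1, Ets2, Etv6, Elk3, Elf1, Spi1 and Gabpa, chosen by symbol from a family whose proteins share a DNA-binding domain. They are 10 of the 18194 genes with a probe set (a group of short probes for a transcript) on the expression arrays, and they are read by 23 probe sets. All 10 were measured, meaning that the brightest probe set of the gene had a signal above 100 in at least 1 sorted population, as was true of 9468 genes. The cells came from Runx1(Venus/+) mouse ES cells, a heterozygous line derived from CCE ES cells in which the gene for the fluorescent protein Venus sits behind the proximal Runx1 promoter, P2. Runx1+ in the name of a population therefore means that P2 of the targeted allele was active, and every population came from this line alone. The cells were differentiated without treatment for 6 days on OP9 stromal cells and were sorted into 4 populations, each measured on 1 Affymetrix array. Population 1 was Runx1-/VE-cadherin+/Flk1+, population 2 was Runx1+/VE-cadherin+/CD41-, population 3 was Runx1+/VE-cadherin+/CD41+ and population 4 was Runx1+/VE-cadherin-/CD41+. VE-cadherin and Flk1 are surface proteins of endothelial cells, CD41 is an early surface marker of blood progenitors, and the order from 1 to 4 follows the gain of Runx1, the gain of CD41 and the loss of VE-cadherin.

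ETS proteins bind DNA at sites built around the letters GGAA, and most activate transcription, while Etv6 and Elk3 mainly repress it. Etv2 acts in early mesoderm, where blood and endothelium are specified. Fli1, Erg, Ets1 and Ets2 act on many endothelial genes, Fli1 and Erg also act in megakaryocytes and blood stem cells, and Spi1 encodes PU.1, a central regulator of myeloid and B cells. Because family members bind closely related sites, several of them can occupy the same control region.

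ETS genes can themselves carry ETS sites in their promoters, so the promoters of the 10 genes were searched, from 250 bases before to 50 bases after each start in RefSeq (build GRCm38.p6). The table used held 10 promoters of 7 of the genes, and Fli1, Ets1 and Spi1 are not among them. The letters CCGGAAGT, searched on both strands, were in 0 of these promoters and in 3.89% of all 32851 promoters. The shorter CGGAAG, which lies inside CCGGAAGT, was in the promoter of Gabpa and in 16.9% of all. AGGAAG, a motif chosen after the data were seen, was in 5 of the 10 promoters, those of 5 genes, and in 35.4% of all promoters. AGGAAG and CGGAAG differ in their first letter only. The windows below show the matches except 1 further AGGAAG of Gabpa, 5′ to 3′ along the gene's strand with the motif in capitals; CTTCCT and CTTCCG are AGGAAG and CGGAAG on the opposite strand. The Elk3, Etv2, Etv6 and Erg windows and the last of Gabpa are given at chr10:93311170-93311195 (-), chr7:30636044-30636069 (-), chr6:134035715-134035740 (+), chr16:95459373-95459398 (-) and chr16:84835021-84835046 (+), and the other Gabpa window at chr16:84835002-84835027 (+).
Elk3: gtggccgagcAGGAAGcggggcgggc
Etv2: tgtctgaactAGGAAGgacaggggaa
Etv6: tctctcttccAGGAAGgaaaacattc
Erg: atagaaacctCTTCCTgccattggct
Gabpa: aaacaggaggAGGAAGtggagggtaa
Gabpa: agggtaagtgCTTCCGggtccctcag
The Erg window belongs to 1 of 3 annotated starts. These matches are letters in a window, and whether a factor binds there was not measured on the arrays.

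With 1 array per population there is no replicate check, no test is given, and precision is limited by the number of arrays. The error available is the disagreement between probe sets of the same gene on the same arrays, which holds no variation between cultures or sorts. In 90% of pairs of probe sets that were both above 100, the log2 ratios differed by up to 0.48 for population 2 over 1, 0.45 for 3 over 2, 0.55 for 4 over 3 and 0.65 for 4 over 1. The median log2 ratio over all measured genes was 0.00, 0.22, 0.06 and 0.36 in the same order, and centring each array on its median moved population 3 by -0.38 on the log2 scale relative to population 2. Differences between populations 2 and 3 are therefore given beside this shift. Each array had 8097 to 8666 genes above 100. In bulk samples, fewer cells that express a gene and less RNA per cell cannot be told apart.

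The sorted populations were set against their markers. Runx1 itself read 55.3, 358, 1297 and 2440.2 from population 1 to population 4, and Cdh5, which encodes VE-cadherin, had 5683, 3946, 4849 and 40.9. Kdr, the gene for Flk1, had 5866, 4496, 4835 and 906, and Itga2b, the gene for CD41, had 667, 1135, 2418 and 1609.5, so Itga2b transcript was also present in populations 1 and 2. The summed signal of 8 endothelial markers was 26234, 17576, 20999 and 1806, with 4 of the 8 above 100 in population 4, and that of 6 erythroid markers was 231, 309, 4599 and 45932. The 9 stromal markers, which OP9 cells would bring, summed to 3239, 1955, 1753 and 1429.9. Of the 9, only 4, 3, 3 and 3 were above 100, and Col1a2 alone had 1988, 1132, 970 and 843. The 4 pluripotency markers were below 100 throughout.

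As deposited, 6 of the 10 ETS genes had their lowest signal in the VE-cadherin- population 4. Etv2 and Gabpa were lowest in population 1 and Elf1 and Spi1 in population 2. The share of all measured genes lowest in population 4 was not computed, so these counts are description only. Fli1, Erg, Ets1, Ets2 and Elk3 each stood at least 2-fold below population 3 in population 4, which is 5 of the 10 genes beside 12.2% of all measured genes. Population 4 was at least 2-fold below population 1 for the same 5, beside 12.9% of genes, and for 4 of them with scaling on hybridisation controls (Fli1 at a log2 ratio of -0.71) or with probe sets averaged (Ets2 at -0.84). For none of the 10 was population 4 at least 2-fold above population 3 or 1, as it was for 7.94% and 22.4% of genes. Between the VE-cadherin+ populations, Etv2 was the 1 gene with population 2 at least 2-fold above population 1 (2.92% of genes) and Elf1 the 1 gene with population 3 at least 2-fold above population 2 (3.11%), and none was 2-fold lower at these steps (4.19% and 0.253%). The median log2 ratio over the 10 genes was -0.99 for population 4 over 3, against 0.06 over all measured genes, and -0.68 for population 4 over 1, against 0.36. For population 2 over 1 and 3 over 2 the medians of the 10 were -0.08 and 0.33, against 0.00 and 0.22.

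**Figure D1:**
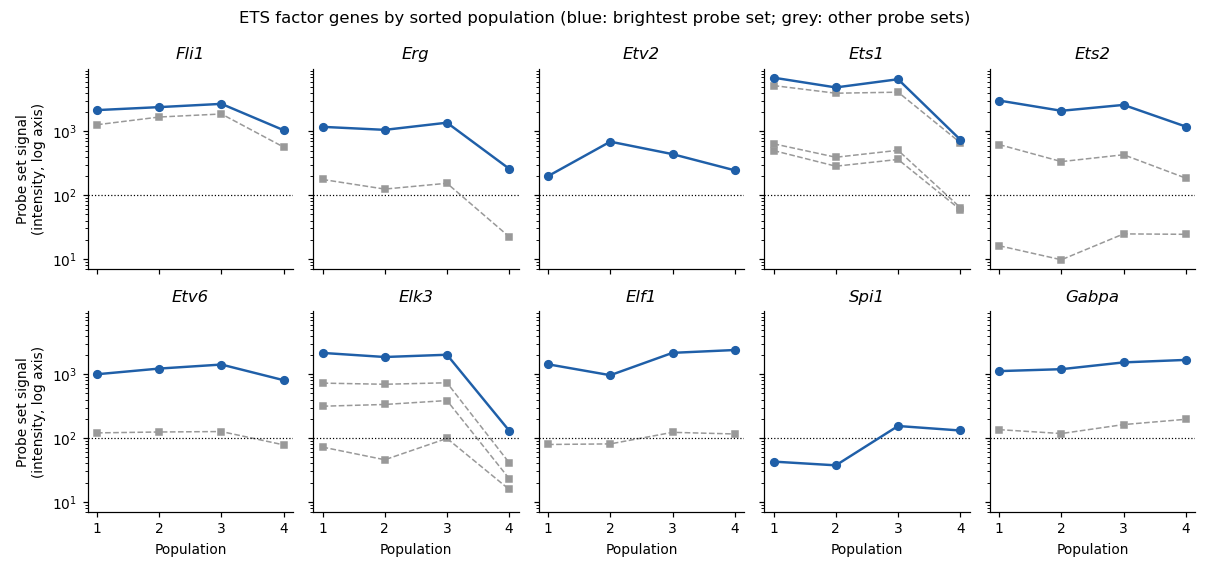
Signal of each of the 23 probe sets of the 10 ETS factor genes (intensity, log axis) in populations 1 to 4, 1 array each, with the brightest probe set in blue, the others in grey and a dotted line at 100. Elk3 goes from 2022 in population 3 to 130.3 in population 4, while Gabpa goes from 1534 to 1678.

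The plot of signals by population shows that the probe sets of a gene mostly run in parallel. Of the 17 probe sets of the 6 genes lowest in population 4 (Etv6 and the 5 above), 16 were lowest there, the exception being an Ets2 probe set that was below 100 everywhere. Of the 13 probe sets of Fli1, Erg, Ets1, Ets2 and Elk3 that were above 100 in population 3, 12 showed a difference of at least 2-fold. The exception was the dimmer Erg probe set, which allowed only a bound. Both counts include the brightest probe sets, by which the genes were grouped and which therefore could not disagree.

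Etv2, the early mesodermal factor, had its own order among the 10 genes. Its signals were 199, 689.9, 439.6 and 245 in populations 1 to 4. Population 2, the earliest population with an active Runx1 promoter, was highest, 3.47-fold above population 1 (log2 ratio 1.79), and 21 of the 9468 measured genes, Etv2 included, had a ratio this high or higher. Population 3 was 1.57-fold below population 2 (log2 ratio -0.65, or -1.03 with centred arrays and -0.28 with scaling on hybridisation controls), and population 4 was 1.79-fold below population 3. As deposited, each of these steps was larger than the disagreement seen in 90% of probe set pairs, whereas populations 1 and 4 differed by less (0.30). Etv2 is read by 1 probe set, so no other probe set bears on this order. Runx1, below 100 in population 1, was at least 3.58-fold higher in population 2. These populations were sorted apart by the Runx1 reporter, so that direction was set by the sort. From population 2 to 3 Etv2 and Runx1 parted, since Runx1 was 3.62-fold higher again in population 3.

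Fli1, used by endothelial cells and megakaryocytes alike, had signals of 2155, 2401, 2701 and 1043, and those of its other probe set were 1271, 1679, 1874 and 567. Both put population 4 lowest, 2.59-fold and 3.30-fold below population 3 (log2 ratios -1.37 and -1.72). Against population 1 the differences were 2.07-fold and 2.24-fold, and for the brighter probe set the log2 ratio was -0.71 when the arrays were scaled on their hybridisation controls. On the brighter probe set, neighbouring levels among populations 1 to 3 lay within the disagreement between probe sets.

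Erg, the closest relative of Fli1 in this group, had signals of 1178, 1056, 1368 and 259. The VE-cadherin+ populations again lay close together, and population 4 was 5.28-fold below population 3 (log2 ratio -2.40) and 4.55-fold below population 1. The dimmer probe set of Erg gave 176, 124, 153 and 22.2, which allows a bound of at least 1.53-fold for the step from 3 to 4. Population 3 was highest for both Fli1 and Erg as deposited, but with centred or quantile-normalised arrays Fli1 was highest in population 2 and Erg in population 1.

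Ets1, a founding member of the family that acts in endothelium and lymphocytes, had signals of 6954, 4887, 6571 and 741. Population 4 was 8.87-fold below population 3 (log2 ratio -3.15) and 9.38-fold below population 1. All 4 probe sets of Ets1 put population 4 lowest, and the other 3 were 6.19-fold, at least 5.05-fold and at least 3.63-fold below population 3. As deposited, population 2 was below populations 1 and 3 by every probe set, with log2 ratios of -0.51 for 2 over 1 and 0.43 for 3 over 2 on the brightest, and the second of these was 0.04 with centred arrays.

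Ets2, close to Ets1 in sequence and known as a target of MAP kinase signalling, had signals of 3043, 2103, 2601 and 1189.5. The order of the populations as deposited was that of Ets1, although populations 2 and 3 changed places with centred arrays, and the difference at the end was smaller, as population 4 was 2.19-fold below population 3 and 2.56-fold below population 1. A dimmer probe set gave 621, 336, 429.99 and 185, a difference of 2.33-fold between populations 3 and 4. The step from 3 to 4 stood near the 2-fold limit, at a log2 ratio of -1.13 as deposited and -0.96 with centred arrays.

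These 4 genes lie as neighbouring pairs in the mouse genome. Fli1 and Ets1 are adjacent on chromosome 9 and Erg and Ets2 on chromosome 16, with 0 protein-coding genes between the members of either pair in the RefSeq annotation (GRCm38.p6), and 92808 and 115806 bases between them. Neighbours did not share the size of the difference. From population 3 to population 4, Ets1 was 8.87-fold lower and its neighbour Fli1 2.59-fold, while Erg was 5.28-fold lower and its neighbour Ets2 2.19-fold.

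Elk3, a repressor that forms a ternary complex with serum response factor and is known from developing vessels, had the largest difference of the 10 genes on their brightest probe sets. Its signals were 2161, 1864, 2022 and 130.3. Populations 1 to 3 lay within the disagreement between probe sets, and population 4 stood far below them, 15.5-fold lower than population 3 (log2 ratio -3.96), 14.3-fold lower than population 2 and 16.6-fold lower than population 1. With signals below 100 raised to 100, 47 measured genes had a ratio of population 4 over 3 this low or lower, Elk3 included. Genes below 100 in population 4 entered this count by their bounds, so it may be too low. Other Elk3 probe sets had signals of 726, 696, 735 and 40.9 and of 315, 336, 387 and 23.1. They gave bounds of at least 7.35-fold and at least 3.87-fold for the same step, and the last probe set was below 100 everywhere. With the log2 signals of all Elk3 probe sets averaged, population 4 fell below 100. The ratio of population 4 over 3 was then only a bound, at -2.29 or lower. That of Ets1 was -2.84, so the averaged values do not rank these genes.

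Etv6, the repressor also known as Tel that is needed for adult blood formation, had signals of 999.8, 1228, 1419 and 807. Population 4 was 1.76-fold below population 3 (log2 ratio -0.82), short of 2-fold, and the second probe set gave 120.3, 124, 126 and 78.0. In the order of signal (4, 1, 2, 3), all neighbouring levels of the brighter probe set lay within the disagreement between probe sets. Its difference between populations 3 and 4 was larger than that disagreement (0.55). The lowest population was 4 as deposited, but populations 4 and 1 differed by a log2 ratio of 0.02 with population 4 higher when the arrays were scaled on hybridisation controls, and the highest was population 2 with centred or quantile-normalised arrays.

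**Figure D2:**
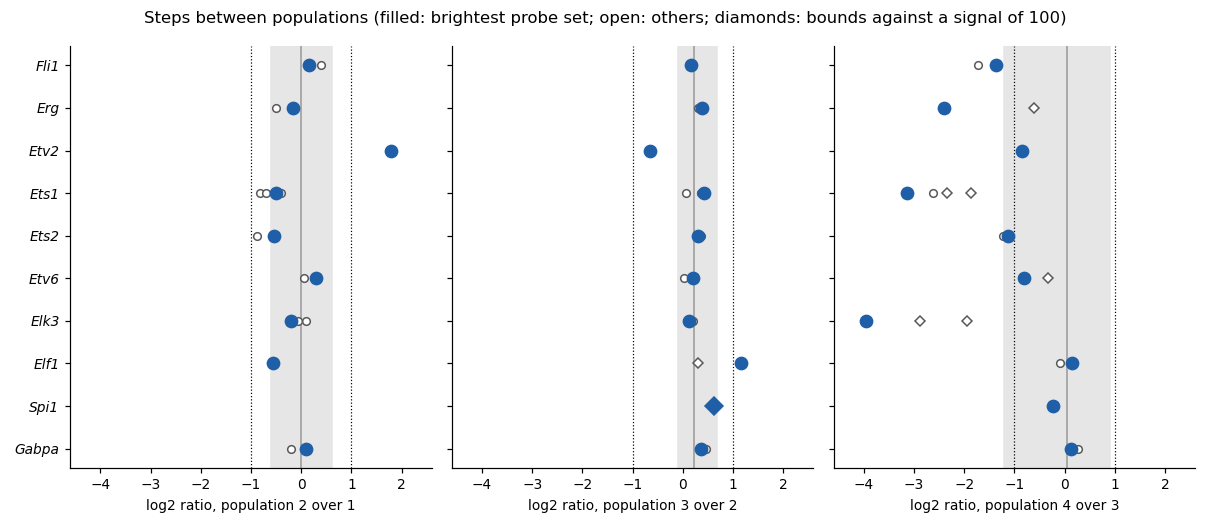
The log2 ratio of each probe set of the 10 ETS factor genes at the steps from population 1 to 2, 2 to 3 and 3 to 4 (filled, brightest probe set; open, other probe sets; diamonds, bounds against a signal of 100), with the 10th to 90th percentile of all 9468 measured genes in grey and dotted lines at 2-fold. Etv2 lies outside the grey band at the step to population 2 (1.79), Elf1 at the step to population 3 (1.16), and Fli1, Erg, Ets1 and Elk3 at the step to population 4 (-1.37 to -3.96).

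The plot of steps sets each gene against all measured genes. At the step from population 3 to 4 the 10th percentile of all genes was -1.21, and Ets2, at -1.13, lay just inside it. At the step from 2 to 3 the 10th and 90th percentiles were -0.10 and 0.67, so Etv2 (-0.65) and Elf1 (1.16) lay outside on opposite sides.

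Elf1, an activator expressed in blood and endothelial cells, was higher in the CD41+ populations. Its signals were 1433, 966, 2165 and 2399, lowest in population 2 and similar in populations 3 and 4. Population 3 was 2.24-fold above population 2 (log2 ratio 1.16), a ratio exceeded by 1.88% of measured genes, and 1.51-fold above population 1. With centred arrays the log2 ratio of 3 over 2 was 0.78 and with quantile normalisation 0.92, and with scaling on hybridisation controls it was 1.54, so the 2-fold call depended on the scaling. The dimmer probe set, at 79.2, 80.8, 123 and 116, allowed a bound of at least 1.23-fold. It went the same way from population 2 to 3 but had population 4 slightly below population 3.

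Spi1, the gene for PU.1, was close to the lower limit of these arrays. Its only probe set had signals of 42.6, 37.3, 154 and 131. It was below 100 in populations 1 and 2 and above it in both CD41+ populations, with population 3 at least 1.54-fold above population 2 and population 4 at least 1.31-fold above population 1. With signals raised to 50 in place of 100, the same log2 ratios were 1.63 and 1.39. A signal this near the limit cannot give the size of the difference.

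Gabpa encodes the DNA-binding chain of GABP, which acts on genes for mitochondrial proteins in most cells. Its signals were 1119.9, 1201, 1534 and 1678, with 135, 118, 162 and 197 for its other probe set. Population 4 was 1.50-fold above population 1 by the brighter and 1.45-fold by the dimmer probe set. This difference was within the disagreement between probe sets (0.65 for population 4 over 1), as was each single step. The probe sets went opposite ways from population 1 to 2 (0.10 and -0.20). The log2 ratio of 0.58 compares with a median of 0.36 over all measured genes for the same populations.

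**Figure D3:**
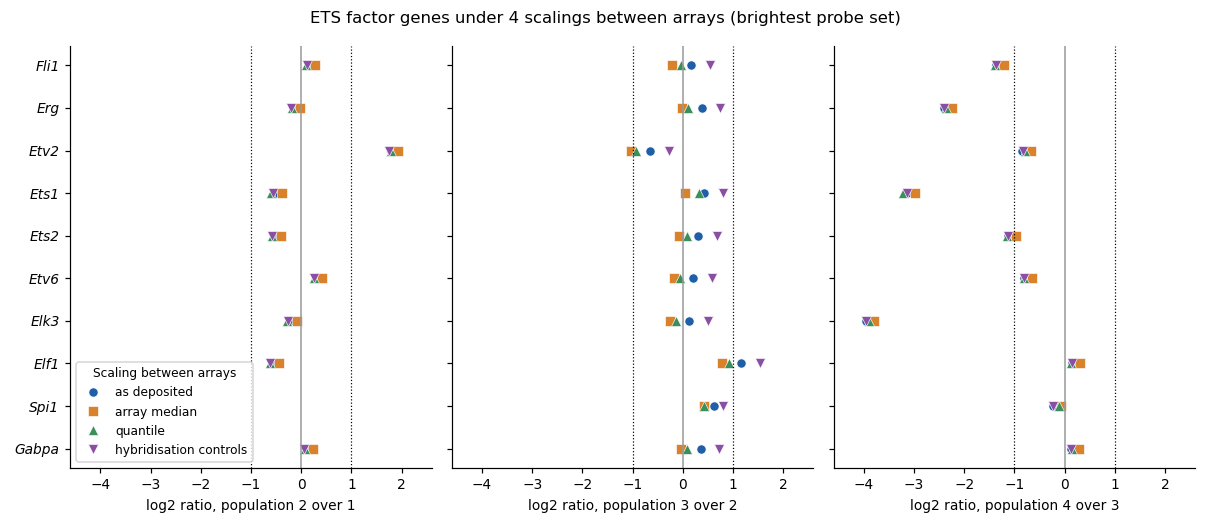
The log2 ratio of the brightest probe set of each ETS factor gene at the 3 steps under 4 scalings between arrays: as deposited, centred on the array median, quantile-normalised and scaled on hybridisation controls (Spi1 was below 100 in populations 1 and 2 and has no ratio there). The ratios of population 4 over 3 stay within 0.16 of the deposited value, while those of population 3 over 2 move by up to 0.38 and with centred arrays change sign for Fli1, Erg, Ets2, Etv6, Elk3 and Gabpa.

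How far the scaling matters is shown in the plot of scalings. For population 4 over 3, Fli1, Erg, Ets1 and Elk3 were at least 2-fold lower under each of the 4 scalings. For population 3 over 2, Fli1, Erg, Ets2, Etv6, Elk3 and Gabpa changed sign with centred arrays (for example Fli1 from 0.17 to -0.21), so the order of populations 2 and 3 is not settled for them. Ets1, Ets2 and Elk3 were highest in population 1 as deposited but in population 3 with scaling on hybridisation controls.

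Of 16 further genes of the ETS family, 14 had a probe set and 5 were measured. In population 4, 1 of these was at least 2-fold below populations 3 and 1, beside 12.2% and 12.9% of all measured genes. With probe sets averaged the count was 0 for both, and nothing is read from it. Erf, a repressor, had signals of 866, 835, 1119 and 265, so that population 4 was 4.23-fold below population 3. Etv5 had 164, 162, 194 and 27.9, with population 4 at least 1.94-fold below population 3. The other measured genes differed less: Elk4, a relative of Elk3, had signals of 1079, 914, 1446 and 970.4, Elf2, a relative of Elf1, had 856, 834, 904 and 945, and Etv3 had 581, 467, 637 and 516. Elk3 and Elk4, both partners of serum response factor, thus differed in the step to population 4, 15.5-fold against 1.49-fold lower. Elk1, Elf3, Elf4, Elf5, Ehf, Etv4, Spib, Spic and Spdef were below 100 throughout.

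ETS factors often bind beside other factors, and 12 of 15 listed partners were measured. For population 4 over 3, 2 were at least 2-fold higher and 2 lower, beside 7.94% and 12.2% of all genes, and the median log2 ratio was -0.21, against 0.06. Tal1, which binds with Fli1 and Gata2 at blood enhancers, had signals of 581, 1094, 1346 and 3359.5, and Gata1, a partner in erythroid and megakaryocytic cells, had 15.1, 26.9, 50.7 and 2065. Foxc2, which binds composite sites with Etv2 in endothelial genes, had 486, 527, 329 and 18.3, and Jun had 3102, 2482, 3076 and 1297. Tal1 and Fli1 therefore ran in opposite directions between populations 3 and 4, 2.50-fold higher and 2.59-fold lower, while Gata2 had 530.3, 548, 518 and 330.1. Gabpb1 and Gabpb2, the genes for the chains that pair with Gabpa, had 416, 379, 488 and 366 and 303, 448, 554 and 752, so that population 4 was 2.48-fold above population 1 for Gabpb2.

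Genes known to have ETS-bound control regions in endothelium were all measured, 19 of 19. In population 4, 18 stood at least 2-fold below population 3 (median log2 ratio -2.79), beside 12.2% of all measured genes and 5 of the 10 ETS factor genes. The exception, Clec14a, was already below 100 in population 3. Cdh5, Tie1, Cldn5, Icam2, Nos3, Mmrn2, Robo4, Dll4, Notch4 and Emcn were below 100 in population 4 too. These and Clec14a counted as measured through the VE-cadherin+ populations alone and could not be higher in population 4. Nothing is therefore read from the count or the median. Kdr, Flt1, Tek, Pecam1, Eng, Egfl7, Vwf and Esam stayed above 100 in population 4, from 2.02-fold (Egfl7) to 19.2-fold (Esam) below population 3. The largest differences between populations 4 and 1 were in Cdh5 (at least 56.8-fold), Mmrn2 (at least 47.0-fold), Icam2 (at least 28.4-fold) and Emcn (at least 25.0-fold). In population 2, 8 of the 19 stood at least 2-fold below population 1, beside 4.19% of all genes. The list holds all 8 endothelial markers, VE-cadherin was used in the sort, and the part that the loss of endothelial cells from population 4 has in the lower ETS signals was not tested.

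**Figure D4:**
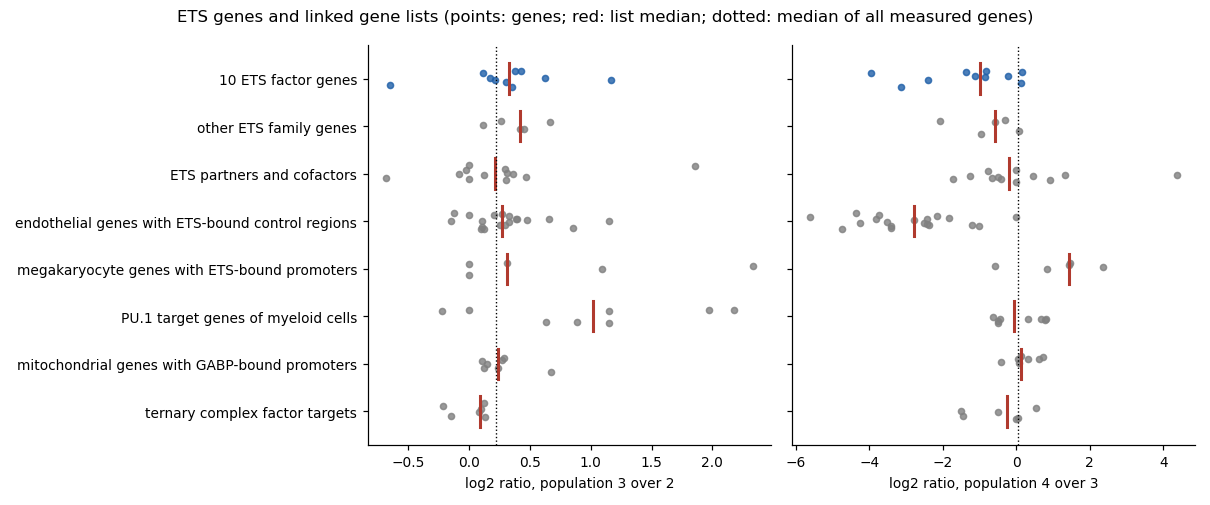
The log2 ratio of population 3 over 2 (left) and 4 over 3 (right) for each measured gene of the ETS factor genes and of 7 linked lists, with the list median in red and the median of all measured genes dotted; genes below 100 in both populations stand at 0. The endothelial list has a median of -2.79 and the megakaryocyte list 1.43 in population 4 over 3, and the ETS factor genes lie between them at -0.99. Gp1bb and Gp9 of the megakaryocyte list were below 100 in population 3 and could only be higher in population 4. Genes of the endothelial list that were below 100 in population 4, Cdh5 and Emcn among them, could not be higher there.

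In the plot of linked lists, the megakaryocyte list lies on the other side of the median of all genes for population 4 over 3. Of 9 megakaryocyte genes with ETS-bound promoters, 5 were measured and 3 had population 4 at least 2-fold above population 3 (median log2 ratio 1.43), beside 7.94% of all genes. Itgb3, a platelet integrin chain, had signals of 9.35, 17.3, 503 and 1354. Gp1bb and Pf4, which encode a platelet receptor chain and a platelet chemokine, stood at least 5.16-fold and 2.76-fold above population 3 in population 4. Itga2b was 1.50-fold lower. Apart from Itga2b, the measured genes of this list were below 100 in populations 1 and 2 and so could only be higher later. Gp1bb and Gp9 were below 100 in population 3 too (38.2 and 31.8) and could only be higher in population 4. Nothing is therefore read from the count or the median. The summed signal of the 4 megakaryocyte markers, all on this list, was 86.2, 85.8, 697 and 2392.

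PU.1 target genes of myeloid cells are set beside the step at which Spi1 passed 100. Of 16, 8 were measured, and 4 of these (Csf1r, Mpo, Tyrobp and Laptm5) had population 3 at least 2-fold above population 2, beside 3.11% of all measured genes. Of the 8, 6 (Csf1r, Csf3r, Fcgr3, Mpo, Tyrobp and Btk) counted as measured through the CD41+ populations alone and could not be lower there, so nothing is read from the count. Csf1r, the receptor for macrophage colony-stimulating factor, had signals of 43.5, 46.1, 222 and 388, Tyrobp, a signalling adaptor of myeloid cells, had 16.5, 31.2, 392 and 678, and Laptm5 had 322, 277, 1254 and 1574. With signals below 100 raised to 100, none of the 8 reached 2-fold between populations 3 and 4. Of all measured genes, 7.94% were at least 2-fold higher and 12.2% lower at this step. Btk, at 69.4 and 160.1 in populations 3 and 4, and Csf3r, at 154.6 and 77.1, allowed only bounds. Whether these genes differed 2-fold is therefore not known. Lyz2 and Itgam, markers of mature myeloid cells, were below 100 throughout, and the summed signal of 6 myeloid markers, several of them on this list, was 265, 394, 1098 and 1228. What part myeloid cells in the CD41+ sorts have in the signal of Spi1 was not tested.

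The 7 mitochondrial genes with GABP-bound promoters were all measured, and 3 had population 4 at least 2-fold above population 1 (median log2 ratio 0.57, against 0.36 and 22.4% over all genes). Tfam and Tfb2m, which act in transcription of mitochondrial DNA, had signals of 685, 1018, 1226 and 1865 and of 683, 797, 942 and 1559, and Cox7c had 102, 127, 202 and 252. Of 7 targets of the ternary complex factors, 6 were measured, and Fos and Ier2 stood 2.81-fold and 2.71-fold below population 3 in population 4, 2 of the 6 beside 12.2% of all genes. Fos had signals of 2871, 1307, 1395 and 496 and Ier2 had 3119, 3449, 3786 and 1399. Fosb, at 199, 116, 94.9 and 60.4, and Srf, at 1427, 1180.3, 1287 and 909, were also lowest in population 4, while Egr1, at 2323, 1434, 1295 and 1870.3, was higher in population 4 than in population 3 (log2 ratio 0.53) and Mcl1, at 5839, 4884, 5163 and 5287, was nearly level between them (0.03). The median of the list for population 4 over 3 was -0.25, against 0.06 over all genes.

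Finally, the genes whose log2 profile over the 4 populations lay nearest to that of each member were listed, by root mean square distance between profiles centred on their own mean, among 6054 genes with a signal of at least 400. Elk3 was nearest to Flt4, which encodes a receptor for lymphatic growth factors (distance 0.029, signals 1653, 1364, 1548 and 93.2), Rasip1 (0.052) and Dlc1 (0.077). Ets1 was nearest to Smad1, a transducer of BMP signals (0.044, signals 2988, 2083, 2637 and 300.1), Eva1b and Adam15, and Ets2 to Armcx3 (0.034), Fbxl17 and Rhoq. Fli1 was nearest to Mmd (0.042), Rbms1 and Ier2, the last of which is also on the list of ternary complex factor targets. Erg was nearest to 2810025M15Rik (0.050), Dcbld1 and Myo18a, and Elf1 to Dctn6 (0.060), Kat2b and Tcp11l2. In population 4, Flt4 (93.2), Rasip1 (38.0), Adam15 (93.5) and Dcbld1 (52.2) were below 100. Their distances therefore rest on raised signals, and Rasip1 and Dcbld1 were lower there than the profile used shows. The profile of Etv2 had no such close match, as its nearest gene was Unc5c, a netrin receptor gene, at 0.15, followed by Tcl1b3 and Tmem38b. Likeness over 4 arrays describes these profiles and no more, and ranking by Pearson correlation in place of distance named 1 of the same 21 genes.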

How the data were processed

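Total RNA of 4 sorted populations was hybridised to Affymetrix mouse expression arrays, 1 per population. The authors deposited probe set signals as intensity on a linear scale. The submitters' processing notes name MAS5 and GCOS 1.3, and scaling and detection calls are not given in the sources used here. The array holds 45101 probe sets, and the 34958 that name a single gene were used, without 932 that name several and 9211 that name none. Each gene was represented by its brightest probe set (mean of log2 signals) and counted as measured above 100 in at least 1 population. Signals below 100 were raised to 100 before a log2 ratio, which makes the resulting fold a bound, and genes below 100 in both populations count as 0 in medians. The linear fold threshold was 2. As there was 1 array per population, no test was run.

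The members and lists were chosen with earlier results of these data known. Genes were named by rule: all 10 ETS genes with every probe set, the measured other ETS genes, up to 4 genes of each list with the largest difference between populations 4 and 1, the sort markers, and the 3 genes nearest to each member whose log2 profile had an SD over 0.5. Jun, Gata2, Gabpb1, Gabpb2, Clec14a, Mpo, Csf3r, Fcgr3, Egr1, Mcl1, Lyz2 and Itgam were named after their values were seen. Other scalings (array medians, quantiles, 18 hybridisation control probe sets), floors and minimums of 50 and 200, averaging all probe sets of a gene, dropping those shared by transcripts, Pearson correlation as likeness, and other motif letters were tried. Promoters came from RefSeq (GRCm38.p6) and were searched on both strands. Python 3.11.15, pandas 2.3.3, numpy 2.4.6 and matplotlib 3.10.9 were used, and the computation was tested on simulated data. The Agilent arrays and ChIP-Seq data were not used here.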

Additional observations from a re-analysis of the deposited data

How the results depend on the processing

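The limits of these arrays are their number and their scaling, since MAS5 scaling is not known, signals near 100 lie close to background, and no value carries a replicate error. All alternatives except the motif AGGAAG were planned. Of the 10 ETS genes, Fli1, Erg, Ets1 and Elk3 kept population 4 at least 2-fold below population 3 under every alternative, while Ets2 was lost with centred arrays (-0.96) and with probe sets averaged (-0.79). For population 4 over 1, 4 of the 5 calls held with hybridisation controls, without Fli1 (-0.71), and 4 with probe sets averaged, without Ets2 (-0.84). The count of members with population 3 at least 2-fold above population 2 (1 as reported) was 0 with centring, 0 with quantile normalisation, 0 with probe sets averaged and 2 with a floor of 50, and the count lower (0 as reported) was 1 with centring. The count higher in population 4 than in population 1 (0 as reported) was 1 with hybridisation controls and 1 with a floor of 50. Of the other ETS genes, 1 was higher in population 3 than in population 2 with hybridisation controls (0 as reported), and the count lower in population 4 than in population 3 (1 as reported) was 2 with hybridisation controls, 2 with a floor of 50 and 0 with probe sets averaged. Their count lower in population 4 than in population 1 (1 as reported) was 2 with a floor of 50 and 0 with probe sets averaged. The median log2 ratio of population 4 over 1 for partners (-0.42 as reported) was -0.085 with hybridisation controls, -0.092 with a floor of 200 and -0.025 with probe sets averaged, and that of mitochondrial genes (0.57) was 0.91 with hybridisation controls. For the endothelial list (-3.59) it was -4.01 with a floor of 50 and -3.19 with a floor of 200, for the megakaryocyte list (1.78) 2.78 with a floor of 50, 1.27 with a floor of 200 and 1.27 with probe sets averaged, for the PU.1 targets (0.67) 1.67 with a floor of 50 and 0 with a floor of 200, and for ternary complex factor targets (-0.82) -0.48 with a floor of 200. Pearson correlation named 1 of the 21 nearest genes again, and centring 19. A floor of 200 acts through signals below 200, and a floor of 50 through signals below 100. The average for Ets2 includes a probe set below 100 in every population. The other Ets2 probe sets gave -1.13 and -1.22 for population 4 over 3. The cause of the other changes was not tested. Of 280 recomputed ratios of single ETS genes, 53 moved by more than the SD per probe set of a gene (0.19 to 0.29), and none of the called ones changed sign. Over all genes, 3.11% were higher and 0.253% lower in population 3 than in population 2 as deposited, against 1.06% and 0.837% with centring, and 22.4% higher and 12.9% lower in population 4 than in population 1, against 15.1% and 15.5% with quantile normalisation. No paired analysis was possible because each population had 1 array.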
